A study of Bos taurus with 18 samples.

Results

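The genes described here are those that keep oxidants, free thiols and reactive metal ions in check: superoxide dismutases and catalase, peroxiredoxins, glutathione peroxidases, thioredoxins, glutaredoxins, the enzymes that make, recycle and use glutathione, metallothioneins, and the NRF2 regulator with its sensor and targets. The families were picked with earlier results of these data known. Their genes were then taken by symbol, without use of a measured value. The symbols begin with the usual stems of these families (GPX, PRDX, TXN, SOD, GST, MGST, MT, GLRX) or equal 1 of a short list of further symbols such as CAT, GCLC and NFE2L2. All are entries of the deposited expression table. The choice by symbol took 75 of the 21668 genes in the table, in 11 families. Reads in at least 3 libraries were found for 71 of them, which were tested, and GSTA5, GSTT3, TXNDC3 and TXNDC8 were not.

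RNA was sequenced from bovine oocytes and embryos at 6 stages, with 3 libraries per stage, each made from a pool of 10 oocytes or embryos. Germinal vesicle (GV) oocytes are immature and arrested in meiosis, and metaphase II (MII) oocytes had been matured in vitro for 20 to 24 h. Both came from German Simmental cattle. The embryos, taken with 4, 8 or 16 cells and as blastocysts, came from German Simmental oocytes matured in the same way and fertilised in vitro for 18 h with a Brahman sire's sperm, and were cultured in 5% O2, 5% CO2 and 90% N2, whereas maturation and fertilisation took place in 5% CO2 in air. From MII oocytes to 4-cell embryos, breed and gas atmosphere therefore changed together with stage, and their parts cannot be told apart there. The same holds for every comparison of blastocysts with GV oocytes. The oocytes were freed of cumulus cells before freezing, the maturation medium held FSH, LH and cow serum, and the labels name no added oxidant and no altered gene. The labels do not say whether the pools of a stage came from separate collections, so p-values measure the spread between these pools only. In such pooled samples, fewer cells of a type and less RNA per cell cannot be told apart.

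By way of background, superoxide dismutases turn superoxide into hydrogen peroxide, which catalase, peroxiredoxins and glutathione peroxidases then remove. Peroxiredoxins are recharged by thioredoxin, and glutathione peroxidases by glutathione, and both routes draw on NADPH through thioredoxin reductase and glutathione reductase. Glutathione S-transferases couple glutathione to reactive compounds, metallothioneins bind zinc and copper, and the transcription factor NRF2, held in check by KEAP1, switches on many of these genes under stress. The oocyte is known to store glutathione during maturation, and cultured embryos are known to be sensitive to oxygen. RNA levels say nothing here of protein, enzyme activity or glutathione itself.

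Values are given as scaled counts, the whole reads recovered from the deposited log2-like values and brought to a common library scale, on which 1 read was worth 0.602 to 3.02. They compare libraries for 1 gene and not genes with each other, since gene length was not taken into account. Differences are those of the mean deposited values ± SE, which come close to log2 fold changes where reads are many and fall short of them where reads are few. Levels after ± are SDs over the 3 pools of a stage. A gene was said to rise or fall where the adjusted p of limma (two-sided, Benjamini-Hochberg over the 17138 genes tested) was under 0.05. No fold or difference is given against a stage with 0 reads in all 3 libraries.

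The libraries held between 2438473 and 11971840 reads within genes, and reads of 51 to 68 of the 75 genes were found per library. The fewest reads were in 16-cell replicates 2 and 3 (2438473 and 3763632), where 1 read was worth 3.02 and 1.99 scaled counts. The 8-cell replicate 2 and 16-cell replicate 1 libraries stood apart from the others of their stages and got the lowest array weights of limma (0.304 and 0.310), so results that rest on them are also given without them. The next lowest weights were those of 16-cell replicates 3 and 2 (0.502 and 0.545). Markers checked the labels: summed oocyte markers were 99550 to 129940 in GV oocytes and 482 to 647 in blastocysts, and summed trophectoderm markers were 641 to 1023 in GV oocytes and 26990 to 59566 in blastocysts. DDX4 made up most of the oocyte sum in blastocysts (372 to 514), with a mean of 443 there and 278 in GV oocytes. Of 22 cumulus and granulosa cell markers tested, 0 passed the test between GV and MII oocytes, their sum was 3666 to 5479 in GV oocytes and 4077 to 5977 in MII oocytes. In GV oocytes 13 of 23 listed markers had reads in all 3 libraries, led by STAR (mean 1782), VCAN (908), HAS2 (780.1) and SERPINE2 (544), and LHCGR, FOXL2 and TNFAIP6 were at 0. STAR, VCAN, HAS2 and SERPINE2 also had means of 1358, 578, 1416 and 453 in 4-cell embryos. The summed levels are therefore not particular to cumulus cells. The GV replicate 3 library held more FSHR, INHA, INHBA, FST and CYP19A1 (80.1 to 126 scaled counts) than GV replicates 1 and 2 (at most 36.3). VCAN, SERPINE2, CD44, KITLG, NR5A2, CYP11A1, TIMP1 and AMHR2 were also highest in GV replicate 3. The rest of the list was not, as HAS2, COL1A2, HSD3B1, NR5A1 and AMH were highest in GV replicate 2 and STAR and PTX3 in GV replicate 1.

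The genes differed between stages as often as genes at large, with 48 of 71 passing the F test over all stages (67.6%, against 67% of all genes tested). At maturation 3 fell and 0 rose, where 0.613% of all genes fell and 0.0992% rose. From MII oocyte to 4-cell embryo 0 rose and 0 fell by limma, where 0.0642% of all genes rose and 0.729% fell. At this step the unadjusted p was under 0.05 for 4 of the 71, and voom, an alternative test on the reads, called 0. From 4-cell to 8-cell embryo 6 rose and 5 fell (54.5% of these calls were rises), against a background of 8.64% of genes that rose and 4.13% that fell. With quantile normalization 5 rose and 7 fell at this step (41.7% rises). Of all genes called there, 58.0% were rises with quantile normalization and 67.6% without it. From 8-cell to 16-cell embryo 3 rose and 12 fell, against 14.8% and 16.3% of all genes. From 16-cell embryo to blastocyst 21 rose and 4 fell, which is 29.6% of the genes rising against 18.2% of all genes, and 13.1% of all genes fell. Among these rises, GPX2, GSTA3 and GSTT1 met the filter of 3 libraries only through their blastocyst reads. Among the falls, GPX5 met it only through its 16-cell reads. Between the ends of the series, blastocyst against GV oocyte, 19 rose and 10 fell, against 25.6% and 20.4% of all genes. In all, 44 of the 71 (62.0%) passed in at least 1 of these 6 comparisons, against 67.0% of all genes tested. At least 2 of the 5 comparisons of neighbouring stages were passed by 11 (15.5%), against 18.5% of all genes.

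The median difference over the 71 genes was -0.28 at maturation, -0.11 at the 4-cell stage, -0.01 at the 8-cell stage, 0.08 at the 16-cell stage and 1.04 at the blastocyst, where the median of all genes tested was 0.18. With genes that had no reads in a stage set at their bound, the blastocyst median was 0.94. The highest stage mean was in the blastocyst for 33 of the 71 genes (46.5%, against 30.4% of all genes tested). It was in the 16-cell embryo for 13 (18.3%, against 21.5%) and in the GV oocyte for 11 (15.5%, against 12.2%). For 6 it was in the 4-cell embryo (8.45%, against 9.93%). The MII oocyte and 8-cell embryo had 4 each (5.63%, against 11.3% and 14.6% of all genes).

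**Figure D1:**
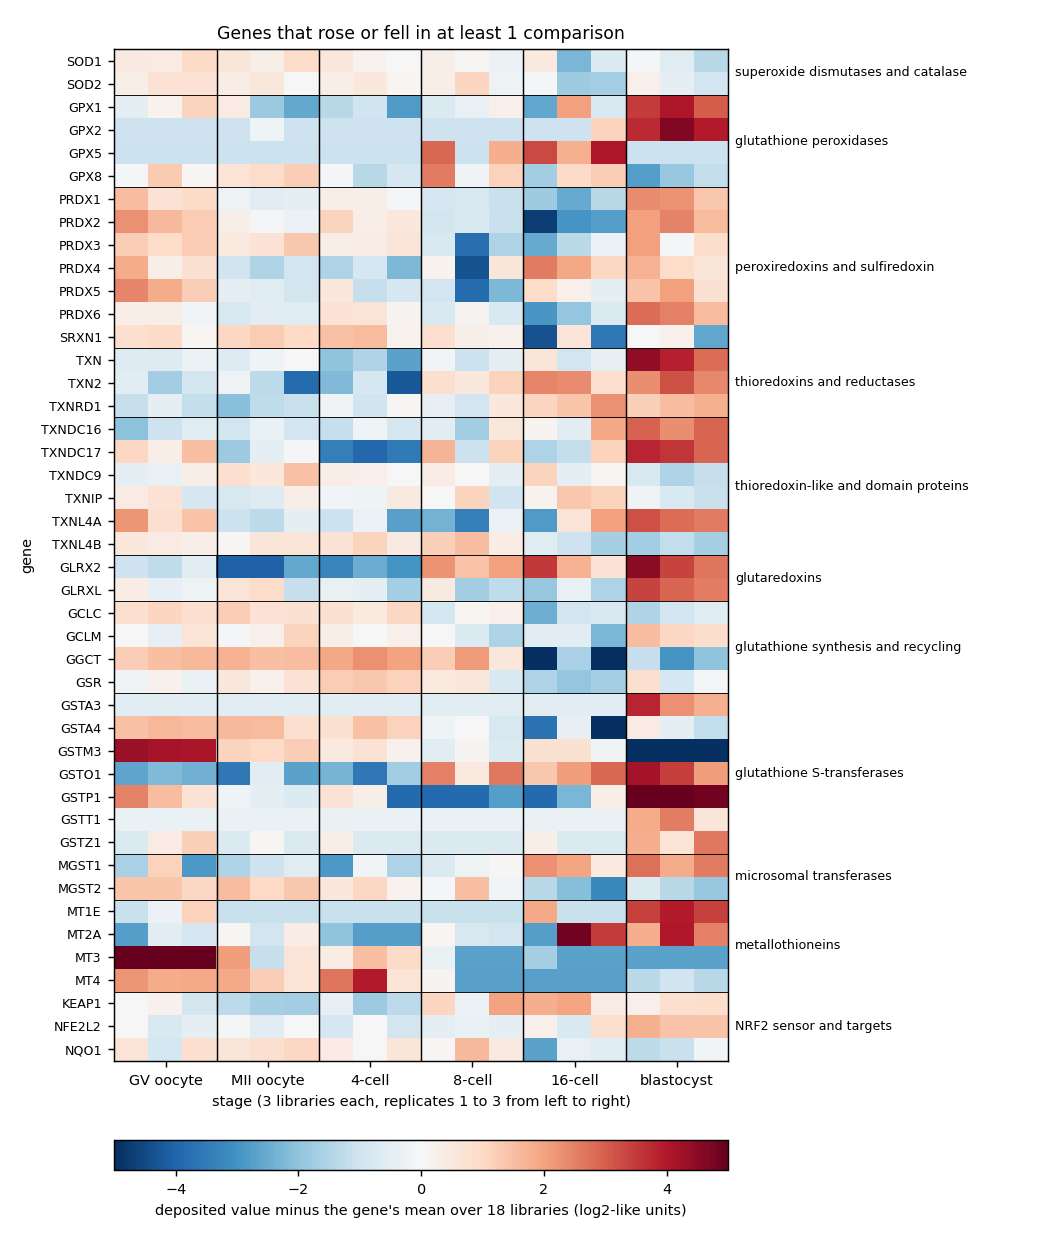
Heat map of the 44 genes that rose or fell in at least 1 of the 6 comparisons (vertical, grouped by family) in the 18 libraries (horizontal, by stage), coloured by the deposited log2-like value minus the gene's mean over all libraries, with colours clipped at -5 and 5. GSTM3 and MT3 are highest in the 3 GV libraries, and GPX1, GPX2, TXN, GLRXL and GSTP1 in the 3 blastocyst libraries.

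**Figure D2:**
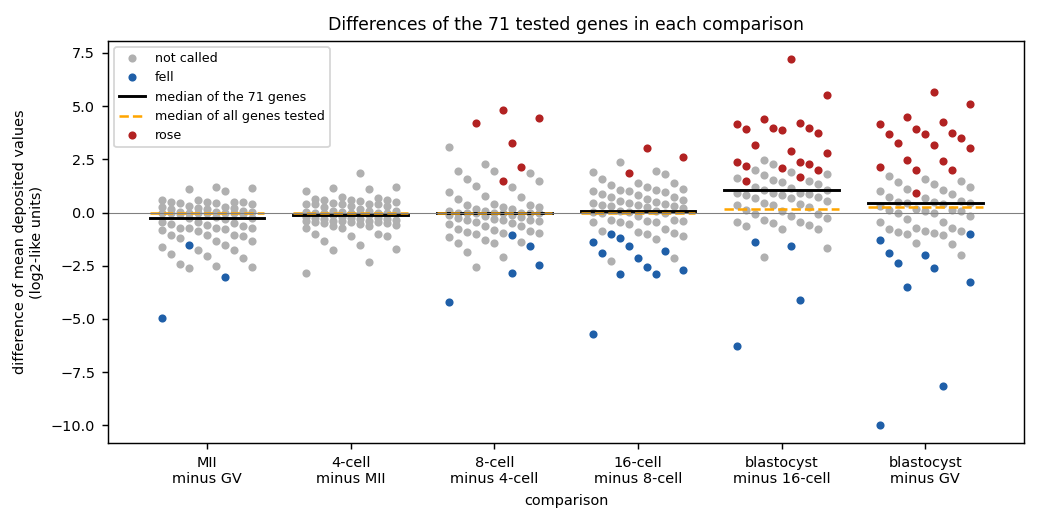
Difference of the mean deposited log2-like values (vertical) of the 71 tested genes in each of the 6 comparisons (horizontal), with 1 point per gene, red where it rose and blue where it fell by limma, a black line at the median of the 71 and a dashed line at that of all genes tested. In the comparison of blastocyst with 16-cell embryo 21 points are red and the medians are 1.04 and 0.18, and no point is coloured for 4-cell embryo against MII oocyte.

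Of the enzymes that act on superoxide and on hydrogen peroxide directly, SOD1 and SOD2 varied across stages and catalase did not pass the F test. SOD1, the cytosolic copper-zinc dismutase, had scaled counts of 1725, 1682 and 2486 (GV), 1911, 1527 and 2353 (MII), 1839, 1424 and 1268 (4-cell), 1555, 1311 and 1036 (8-cell), 1783, 251 and 787 (16-cell) and 1208, 815 and 482 (blastocyst). The blastocyst pools lay below all GV pools, although no step between neighbouring stages passed, and the blastocyst was lower than the GV oocyte (difference -1.30 ± 0.48, adjusted p = 0.031). This result for SOD1 did not pass with GV pool 1 (adjusted p = 0.052), GV pool 3 (0.11), blastocyst pool 2 (0.068) or blastocyst pool 3 (0.16) left out. SOD2, the mitochondrial manganese enzyme, fell from 913 ± 423 in 8-cell to 332 ± 241 in 16-cell embryos (difference -1.57 ± 0.44, adjusted p = 0.0094), with pools that overlapped. This result for SOD2 did not pass with 8-cell pool 2 (adjusted p = 0.059) left out, nor in a fit of the 2 stages alone (0.081). Catalase, the peroxisomal enzyme, had scaled counts of 361, 312 and 591 (GV), 456, 536 and 692 (MII), 399, 222 and 603 (4-cell), 537, 115 and 347 (8-cell), 790.4, 441 and 493 (16-cell) and 612, 401 and 813 (blastocyst). All stages overlapped, and the F test of CAT gave adjusted p = 0.30. SOD3, the secreted dismutase, was at 0 reads in 15 of 18 libraries and at most 3.97 scaled counts in the others.

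All 7 genes of the peroxiredoxin group, thiol peroxidases and the sulfiredoxin that repairs them, passed the F test, and 4 of them rose into the blastocyst. Of all genes tested, 67% passed the F test and 18.2% rose at this step. PRDX2, a cytosolic peroxiredoxin, had scaled counts of 6420.4, 3962 and 3188 (GV), 1607, 1249.5 and 1072 (MII), 2859, 1637 and 1863 (4-cell), 681, 775 and 592 (8-cell), 45.7, 163 and 187 (16-cell) and 5382, 7286 and 3941 (blastocyst). The 16-cell pools were the lowest of all and lay far under every blastocyst pool, with no overlap at either side of this low point. PRDX2 fell into the 8-cell (difference -1.59 ± 0.42, adjusted p = 0.012) and into the 16-cell embryo (difference -2.54 ± 0.42, adjusted p = 0.00014) and rose into the blastocyst (difference 5.52 ± 0.42, adjusted p = 5.1e-09), a mean 42.0 times as high. For PRDX2 the fall into the 8-cell embryo did not pass with 4-cell pool 1 (adjusted p = 0.08) or 8-cell pool 3 (0.052) left out. At maturation PRDX2 differed by -1.74 without passing (adjusted p = 0.053), with all GV pools above all MII pools. It passed in a fit of the 2 stages alone (0.0012), with array weights (0.00054), voom (0.0073), quantile normalization (0.015) and a mean scaled count of at least 10 (0.039). With the replicate block, equal library medians or no filter it did not pass. PRDX1, its close cytosolic relative, had scaled counts of 4203, 2415 and 2815 (GV), 1199, 1003 and 1019 (MII), 1773, 1775 and 1341 (4-cell), 814, 836 and 670.3 (8-cell), 417, 248 and 550.5 (16-cell) and 7422, 6948 and 3712 (blastocyst). Its GV pools lay above all MII pools, and its 16-cell pools were the lowest of all. PRDX1 fell at maturation (difference -1.51 ± 0.33, adjusted p = 0.029), into the 8-cell embryo (difference -1.07 ± 0.33, adjusted p = 0.035) and into the 16-cell embryo (difference -0.99 ± 0.33, adjusted p = 0.026), and rose into the blastocyst (difference 3.89 ± 0.33, adjusted p = 2.3e-08), a mean 14.9 times as high. It also ended above the GV level (difference 0.91 ± 0.33, adjusted p = 0.027). Only the rise into the blastocyst kept its call in all the alternative fits run. For PRDX1 the fall at maturation did not pass with GV pool 1 (adjusted p = 0.23), GV pool 2 (0.053), GV pool 3 (0.078), MII pool 1 (0.077), MII pool 2 (0.13) or MII pool 3 (0.12) left out. For PRDX1 the fall into the 8-cell embryo did not pass with 4-cell pool 1 (adjusted p = 0.12), 4-cell pool 2 (0.11), 8-cell pool 1 (0.064) or 8-cell pool 3 (0.11) left out. For PRDX1 the fall into the 16-cell embryo did not pass with 8-cell pool 1 (adjusted p = 0.067), 8-cell pool 2 (0.069) or 16-cell pool 2 (0.14) left out, nor in a fit of the 2 stages alone (0.19), with array weights (0.079), with voom (0.17) or without both libraries that stand apart (0.073). For PRDX1 the call against GV oocytes did not pass with GV pool 2 (adjusted p = 0.12), GV pool 3 (0.078), blastocyst pool 1 (0.12) or blastocyst pool 2 (0.1) left out, nor with quantile normalization (0.076).

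The other peroxiredoxins had their lowest means at different stages. PRDX6, which reduces phospholipid as well as hydrogen peroxide, had scaled counts of 322, 313 and 229 (GV), 145, 171 and 167 (MII), 421, 418 and 279.7 (4-cell), 150.4, 279 and 148 (8-cell), 30.1, 63.5 and 155 (16-cell) and 1788, 1503 and 778 (blastocyst). Its blastocyst pools lay above all others. PRDX6 fell into the 16-cell embryo (difference -1.39 ± 0.49, adjusted p = 0.036), rose into the blastocyst (difference 4.15 ± 0.49, adjusted p = 1.7e-06) and ended above GV oocytes (difference 2.15 ± 0.49, adjusted p = 0.0011). For PRDX6 the fall into the 16-cell embryo did not pass with 8-cell pool 2 (adjusted p = 0.14), 16-cell pool 1 (0.18) or 16-cell pool 2 (0.072) left out, nor in a fit of the 2 stages alone (0.28), with array weights (0.18), with voom (0.12) or without both libraries that stand apart (0.41). PRDX5, found in mitochondria, peroxisomes and cytosol, had scaled counts of 760.3, 508 and 332 (GV), 98.8, 88.8 and 70.8 (MII), 199, 59.2 and 75.5 (4-cell), 68.7, 5.72 and 25.3 (8-cell), 266, 163 and 97.4 (16-cell) and 378, 586 and 235 (blastocyst). The 16-cell pools lay above all 8-cell pools, of which replicate 2 was the lowest (difference 2.59 ± 0.65, adjusted p = 0.0047). This result for PRDX5 did not pass in a fit of the 2 stages alone (adjusted p = 0.11), with array weights (0.12) or without both libraries that stand apart (0.091). At maturation PRDX5 differed by -2.50 ± 0.65 without passing (adjusted p = 0.084). This difference passed in a fit of the 2 stages alone (0.00099), with array weights (0.0024), the replicate block (0.034) and voom (0.041). With equal library medians, quantile normalization, no filter or a mean scaled count of at least 10 it did not pass. It passed with 8-cell replicate 2 and 16-cell replicate 1 left out (adjusted p = 0.016). Neither library is of these stages, so in that last fit the difference was unchanged and only the shared spread and the adjustment moved. PRDX3, the mitochondrial peroxiredoxin, fell from 318 ± 40.5 to 74.9 ± 61.4 into the 8-cell embryo (difference -2.47 ± 0.66, adjusted p = 0.015) and rose from 105 ± 78.2 to 549 ± 392 into the blastocyst (difference 2.35 ± 0.66, adjusted p = 0.0092). For PRDX3 the fall did not pass with 4-cell pool 3 (adjusted p = 0.056) or 8-cell pool 2 (0.078) left out. For PRDX3 the rise did not pass with 16-cell pool 1 (adjusted p = 0.056) or blastocyst pool 1 (0.072) left out. PRDX4, the peroxiredoxin of the endoplasmic reticulum, rose from 302 ± 259 to 1337 ± 677 into the 16-cell embryo (difference 3.04 ± 0.85, adjusted p = 0.0094), where 8-cell replicate 2 held 12.3 and the other 8-cell pools 380.1 and 513. This result for PRDX4 did not pass with 8-cell pool 2 (adjusted p = 0.051) left out, nor with array weights (0.083) or without both libraries that stand apart (0.15). Its GV pools (1205, 418 and 570) lay above all MII pools (163, 114 and 171), a difference of -2.13 that did not pass (adjusted p = 0.42). It passed in a fit of the 2 stages alone (0.0037), with array weights (0.0078) and without both libraries that stand apart (0.017). With the replicate block, voom or other scalings and filters it did not pass. SRXN1, sulfiredoxin, which restores overoxidised peroxiredoxins, fell from 128 ± 33.9 to 49.1 ± 80.6 into the 16-cell embryo (difference -2.89 ± 0.94, adjusted p = 0.023), with pools that overlapped. The SRXN1 call did not pass with 8-cell pool 1 (adjusted p = 0.07), 16-cell pool 1 (0.12) or 16-cell pool 3 (0.099) left out, nor in a fit of the 2 stages alone (0.16), with array weights (0.072) or without both libraries that stand apart (0.16).

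**Figure D3:**
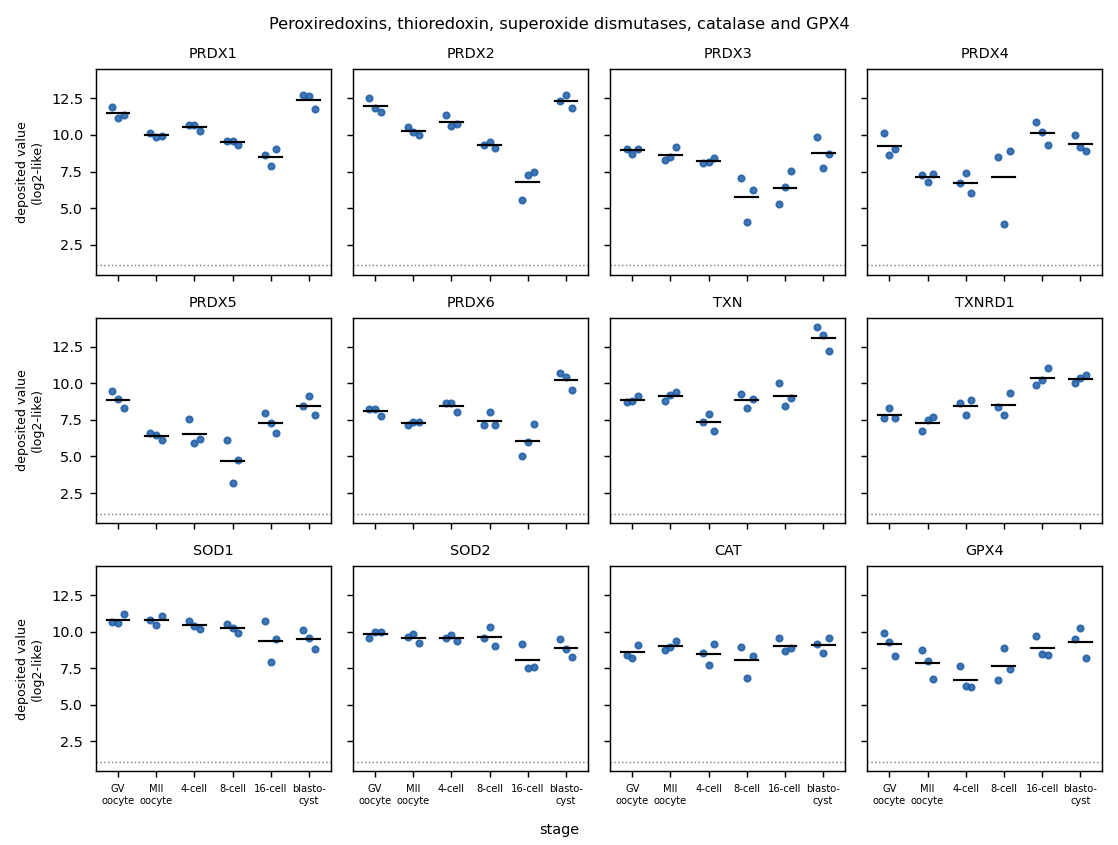
Deposited log2-like values (vertical) of 12 genes that remove superoxide and peroxide or recharge those that do, by stage (horizontal), with 1 point per library, bars at stage means and a dotted line at the value of 0 reads. PRDX1, PRDX2 and PRDX6 are lowest in 16-cell embryos and highest in blastocysts, and CAT shows no such course.

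Of the 8 glutathione peroxidases, 6 passed the F test (against 67% of all genes). GPX1 and GPX2 rose into the blastocyst, where 18.2% of all genes rose. GPX2, an epithelial selenium-dependent form, had scaled counts of 0 in all 3 (GV), 0, 0.705 and 0 (MII), 0 in all 3 (4-cell), 0 in all 3 (8-cell), 0, 0 and 5.96 (16-cell) and 57.1, 110.3 and 67.4 (blastocyst). All 3 blastocyst pools held it, and of the other 15 libraries 2 had any read. GPX2 rose into the blastocyst (adjusted p = 7.4e-06) and against GV oocytes (adjusted p = 4.4e-07). It met the filter of 3 libraries only through its blastocyst reads, so these p-values are no separate support for a rise. GPX1, the common cytosolic form, rose from 108 ± 151 in 16-cell embryos to 814 ± 288 in blastocysts (difference 3.95 ± 0.94, adjusted p = 0.0027), where the 3 blastocyst pools lay above all other libraries. Against GV oocytes GPX1 also rose (difference 3.25 ± 0.94, adjusted p = 0.0075). GPX5, a secreted form best known from the epididymis, was read in 2 of 3 8-cell and in all 3 16-cell libraries, at up to 73.5, and in no other. It fell into the blastocyst, where it had 0 reads (adjusted p = 0.00029). GPX5 met the filter of 3 libraries only through its 16-cell reads, so this p-value is no separate support for a fall. GPX8, a form of the endoplasmic reticulum, was lower in blastocysts (10.2 ± 7.06) than in GV oocytes (70.5 ± 42.6, difference -2.38 ± 0.84, adjusted p = 0.025). This result for GPX8 did not pass with GV pool 2 (adjusted p = 0.11), blastocyst pool 1 (0.099) or blastocyst pool 2 (0.053) left out.

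GPX4, known for repairing oxidised phospholipids within membranes, passed no comparison of stages but did pass the F test (adjusted p = 0.0077). It had scaled counts of 1014, 666 and 339 (GV), 449, 269 and 111 (MII), 216, 78.5 and 75.5 (4-cell), 108, 492 and 183 (8-cell), 890.2, 378 and 356 (16-cell) and 766, 1299.6 and 309.9 (blastocyst). The 4-cell pools were the lowest as a stage and lay below all GV and all 16-cell pools, while its neighbouring stages overlapped in turn. GPX3 also passed the F test only (adjusted p = 0.029), at up to 34.8 scaled counts, and GPX6 and GPX7 passed neither.

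In the thioredoxin system, which recharges the peroxiredoxins, TXN, TXN2 and TXNRD1 passed the F test and TXNRD2 and TXNRD3 did not. TXN, the cytosolic thioredoxin, had scaled counts of 458, 466 and 589.8 (GV), 462, 618 and 713 (MII), 175, 249 and 110.5 (4-cell), 654, 342 and 516 (8-cell), 1106, 369 and 548 (16-cell) and 15823, 10902 and 5044 (blastocyst). Its 3 blastocyst pools lay above all other libraries. TXN rose into the 8-cell embryo (difference 1.50 ± 0.44, adjusted p = 0.026) and into the blastocyst (difference 3.96 ± 0.44, adjusted p = 8.5e-07), a mean 15.7 times as high, and ended above GV oocytes (difference 4.24 ± 0.44, adjusted p = 1.4e-07). The 4-cell pools lay below all MII pools (-1.77 ± 0.44, adjusted p = 0.067). This difference passed in a fit of the 2 stages alone (0.0077), with array weights (0.0005) and a mean scaled count of at least 10 (0.047). With the replicate block, equal library medians, quantile normalization, voom or no filter it did not pass. It passed with 8-cell replicate 2 and 16-cell replicate 1 left out (adjusted p = 0.017). As neither library is of the stages compared, the difference was unchanged there and only the shared spread and the adjustment moved. For TXN the rise into the 8-cell embryo did not pass with 4-cell pool 1 (adjusted p = 0.068), 4-cell pool 3 (0.13), 8-cell pool 1 (0.11) or 8-cell pool 3 (0.076) left out, nor in a fit of the 2 stages alone (0.054) or with voom (0.20). TXN2, the mitochondrial thioredoxin, had scaled counts of 79.2, 32.5 and 60.5 (GV), 99.7, 45.1 and 4.59 (MII), 22.9, 62.8 and 2.80 (4-cell), 209.9, 177 and 269.8 (8-cell), 665, 638 and 221 (16-cell) and 612, 1138 and 646 (blastocyst). The 8-cell pools were above all 4-cell pools. TXN2 rose into the 8-cell embryo (difference 3.26 ± 0.82, adjusted p = 0.0094) and stood above GV oocytes at the end (difference 3.72 ± 0.82, adjusted p = 0.00082). For TXN2 the rise into the 8-cell embryo did not pass with 4-cell pool 3 (adjusted p = 0.076) left out. TXNRD1, the cytosolic reductase that passes electrons from NADPH to thioredoxin, had scaled counts of 208, 338 and 207 (GV), 109, 193 and 218 (MII), 425, 235 and 495 (4-cell), 357, 240.4 and 682 (8-cell), 1006, 1258 and 2303 (16-cell) and 1088, 1381 and 1637 (blastocyst). TXNRD1 rose into the 16-cell embryo (difference 1.87 ± 0.44, adjusted p = 0.0028), with no overlap with the 8-cell pools, and was above GV oocytes in the blastocyst (difference 2.44 ± 0.44, adjusted p = 0.00011). The mitochondrial reductase TXNRD2 and the testis-type TXNRD3 had at most 51.8 and 56.2 scaled counts in any library.

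Proteins named for a thioredoxin fold are a mixed group, and several are not known as antioxidants. Of the 12 tested, 8 passed the F test, against 67% of all genes. TXNDC17, a small cytosolic disulfide reductase that thioredoxin reductase recharges, had scaled counts of 186, 113 and 265 (GV), 21.9, 62.1 and 85.5 (MII), 4.82, 2.42 and 4.19 (4-cell), 299, 40.1 and 197 (8-cell), 27.7, 36.3 and 207 (16-cell) and 1295, 1111 and 691 (blastocyst). The 4-cell pools were the lowest, at under 5 scaled counts, and no other pool was as low. TXNDC17 rose into the 8-cell embryo (difference 4.20 ± 0.76, adjusted p = 0.00056) and the blastocyst (difference 3.95 ± 0.76, adjusted p = 0.00043) and ended above GV oocytes (difference 2.46 ± 0.76, adjusted p = 0.011). For TXNDC17 the last of these calls did not pass with GV pool 2 (adjusted p = 0.053) left out. TXNDC16, a glycoprotein of the endoplasmic reticulum, had scaled counts of 33.5, 72.6 and 99.7 (GV), 79.6, 121 and 77.2 (MII), 66.3, 132 and 83.9 (4-cell), 105, 43.3 and 229 (8-cell), 168, 106 and 596 (16-cell) and 1219, 774 and 1174 (blastocyst). The blastocyst pools lay above all others (difference 2.20 ± 0.63, adjusted p = 0.01, and against GV oocytes difference 3.95 ± 0.63, adjusted p = 3.0e-05). For TXNDC16 the rise from the 16-cell stage did not pass with 16-cell pool 2 (adjusted p = 0.06) left out. TXNL4B, a protein of the splicing machinery, had scaled counts of 1154, 1083 and 1033 (GV), 851, 1226 and 1259 (MII), 1347, 1752 and 1095 (4-cell), 1839, 2354 and 1043 (8-cell), 532, 396 and 256 (16-cell) and 238, 339 and 249.8 (blastocyst). All 16-cell and blastocyst pools lay below all earlier ones. It fell into the 16-cell embryo (difference -2.11 ± 0.35, adjusted p = 0.00014) and was lower in blastocysts than in GV oocytes (difference -1.98 ± 0.35, adjusted p = 8.5e-05). Its relative TXNL4A, also a splicing factor, rose from 80.3 ± 87.5 to 317 ± 75.6 into the blastocyst (difference 2.91 ± 1.02, adjusted p = 0.033). This result for TXNL4A did not pass with 16-cell pool 1 (adjusted p = 0.23), blastocyst pool 1 (0.10), blastocyst pool 2 (0.082) or blastocyst pool 3 (0.067) left out, nor in a fit of the 2 stages alone (0.069), with array weights (0.099) or without both libraries that stand apart (0.16).

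TXNDC9, a binding partner of the CCT chaperonin, fell from 973 ± 561 in 16-cell embryos to 336 ± 85.2 in blastocysts (difference -1.40 ± 0.39, adjusted p = 0.0089) and was lower than in GV oocytes (difference -0.99 ± 0.39, adjusted p = 0.044). For TXNDC9 the fall into the blastocyst did not pass with 16-cell pool 1 (adjusted p = 0.066) left out, nor in a fit of the 2 stages alone (0.057), with array weights (0.055) or without both libraries that stand apart (0.058). For TXNDC9 the call against GV oocytes did not pass with GV pool 2 (adjusted p = 0.062), GV pool 3 (0.18), MII pool 1 (0.053), 4-cell pool 1 (0.053), 4-cell pool 2 (0.051), 4-cell pool 3 (0.0504), blastocyst pool 2 (0.15) or blastocyst pool 3 (0.083) left out, nor with voom (0.071). TXNIP, which binds and inhibits thioredoxin, fell from 329 ± 128 to 104 ± 37.1 into the blastocyst (difference -1.58 ± 0.57, adjusted p = 0.039), while it did not pass the F test (adjusted p = 0.20). This result for TXNIP did not pass with 16-cell pool 2 (adjusted p = 0.12), 16-cell pool 3 (0.093), blastocyst pool 2 (0.093) or blastocyst pool 3 (0.13) left out, nor in a fit of the 2 stages alone (0.068), with array weights (0.055) or with voom (0.11). TXNDC5, TXNDC12 and TXNL1 passed the F test only, and TXNDC6, TXNDC11 and TXNDC15 passed neither. Without these 12 genes, 18 of the 59 remaining genes rose and 2 fell into the blastocyst, against 18.2% and 13.1% of all genes.

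Glutaredoxins reduce mixed disulfides with glutathione, or carry iron-sulfur clusters, and 2 of the 5 passed the F test, against 67% of all genes. GLRX2, a mitochondrial form, had scaled counts of 14.2, 11.3 and 21.2 (GV), 0, 0 and 2.76 (MII), 0.602, 3.02 and 1.40 (4-cell), 176, 96.5 and 155 (8-cell), 437, 121 and 57.6 (16-cell) and 873, 391 and 238 (blastocyst). No MII or 4-cell pool exceeded 3.02, and all 8-cell pools lay above them. GLRX2 rose into the 8-cell embryo (difference 4.82 ± 0.78, adjusted p = 0.00018) and was higher in blastocysts than in GV oocytes (difference 4.49 ± 0.78, adjusted p = 8.2e-05). GLRXL, listed beside GLRX in the table and given as GLRX in the RefSeq gene table, had scaled counts of 683, 405 and 445 (GV), 832, 1018 and 239.9 (MII), 411, 382 and 159 (4-cell), 724, 158 and 216 (8-cell), 141, 411 and 179 (16-cell) and 5664, 4041 and 3155 (blastocyst). The blastocyst pools stood above all others (difference 4.23 ± 0.58, adjusted p = 1.1e-05, a mean 17.6 times as high). It also rose against GV oocytes (difference 3.05 ± 0.58, adjusted p = 0.0002). GLRX itself had reads in 3 libraries, at up to 25.3, and since both names point to 1 gene in RefSeq their values are uncertain. GLRX3 and GLRX5, which serve iron-sulfur cluster handling, had reads in every library and did not pass the F test (adjusted p = 0.51 and adjusted p = 0.29).

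Among the 5 genes that make and recycle glutathione, GGCT, GSR and GCLC fell into the 16-cell embryo and GSR, GCLM and GGCT rose into the blastocyst, steps at which 16.3% of all genes fell and 18.2% rose. The fall of GCLC and the rise of GGCT did not hold in several alternative fits, which are given beside their values. GCLC, the catalytic subunit of the rate-limiting ligase, had scaled counts of 674, 829 and 678 (GV), 925, 639.6 and 669.9 (MII), 671, 546 and 811 (4-cell), 208, 416 and 471 (8-cell), 68.6, 199.5 and 231 (16-cell) and 134, 203 and 253 (blastocyst). Every 8-cell, 16-cell and blastocyst pool lay below every earlier pool. GCLC fell into the 16-cell embryo (difference -1.20 ± 0.43, adjusted p = 0.041) and was lower in blastocysts than in GV oocytes (difference -1.90 ± 0.43, adjusted p = 0.0012). For GCLC the fall into the 16-cell embryo did not pass with MII pool 2 (adjusted p = 0.051), 4-cell pool 1 (0.052), 8-cell pool 2 (0.11), 8-cell pool 3 (0.13) or 16-cell pool 1 (0.22) left out, nor in a fit of the 2 stages alone (0.25), with array weights (0.33), with voom (0.09) or without both libraries that stand apart (0.38). GCLM, the modifier subunit of the same ligase, took another course and rose from 42.6 ± 24.9 to 199 ± 49.2 into the blastocyst (difference 2.29 ± 0.60, adjusted p = 0.0059), with no overlap. GSS, glutathione synthetase, which adds the last amino acid, stayed at or under 45.0 scaled counts and did not pass the F test (adjusted p = 0.48).

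GSR, the reductase that recycles oxidised glutathione, had scaled counts of 576, 755 and 523 (GV), 976, 759 and 1088 (MII), 1568, 1693 and 1449 (4-cell), 918, 973 and 385 (8-cell), 220.2, 169 and 199 (16-cell) and 1151, 358 and 619.8 (blastocyst). The 4-cell pools were the highest, and the 16-cell pools lay below all others. It fell into the 16-cell embryo (difference -1.82 ± 0.40, adjusted p = 0.0017) and rose into the blastocyst (difference 1.68 ± 0.40, adjusted p = 0.0027). GGCT, a cyclotransferase that breaks down gamma-glutamyl peptides, had scaled counts of 1444, 1759 and 1984 (GV), 2084, 1788 and 1819.6 (MII), 2404, 3066 and 2507 (4-cell), 1457, 2744 and 925 (8-cell), 4.81, 199.5 and 9.94 (16-cell) and 273, 76.2 and 150.3 (blastocyst). Its 16-cell pools spread widely, from 4.81 to 199.5, and all lay below every earlier pool. GGCT fell into the 16-cell embryo (difference -5.72 ± 0.74, adjusted p = 1.6e-05), rose into the blastocyst (difference 2.37 ± 0.74, adjusted p = 0.018) and stayed below the GV level (difference -3.50 ± 0.74, adjusted p = 0.00058). For GGCT the rise into the blastocyst did not pass with 16-cell pool 1 (adjusted p = 0.13), 16-cell pool 3 (0.089), blastocyst pool 1 (0.10) or blastocyst pool 3 (0.054) left out, nor in a fit of the 2 stages alone (0.16) or without both libraries that stand apart (0.11).

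**Figure D4:**
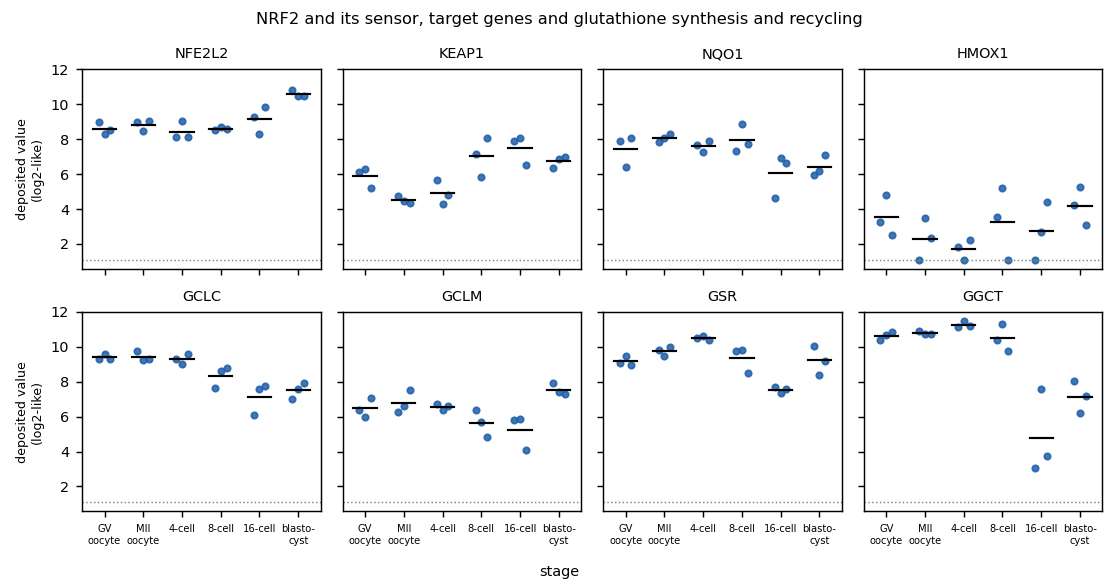
Deposited log2-like values (vertical) of NFE2L2, KEAP1, NQO1, HMOX1 and 4 glutathione genes by stage (horizontal), with 1 point per library, bars at stage means and a dotted line at the value of 0 reads. NFE2L2 is highest in blastocysts, and GCLC, GSR and GGCT are lowest in 16-cell embryos.

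Glutathione S-transferases moved in opposite directions by gene. Of the 12 tested, 7 passed the F test, against 67% of all genes. Into the blastocyst 5 rose and 1 fell, against 18.2% and 13.1% of all genes. GSTM3, of the mu class, had scaled counts of 13746, 11999 and 11708 (GV), 1513, 1364 and 1639 (MII), 957, 1138 and 798 (4-cell), 468, 752 and 420.2 (8-cell), 1179, 1179 and 602 (16-cell) and 4.28, 15.2 and 7.26 (blastocyst) and ranked 1 by F test among the 71 genes. GV pools lay above all others and blastocyst pools below all others, with no overlap at the steps that passed. GSTM3 fell at maturation (difference -3.05 ± 0.36, adjusted p = 0.0002), a mean 0.121 times the earlier one, and again into the blastocyst (difference -6.28 ± 0.36, adjusted p = 1.5e-10), a mean 0.00905 times the earlier one. Blastocysts and GV oocytes differed by -9.99 ± 0.36 (adjusted p = 2.2e-14). These calls were kept in all alternative fits run. GSTM1 and GSTM2, of the same class, did not pass the F test, and reads shared among close copies of the class cannot be told apart.

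GSTP1 and GSTO1 had their highest means in blastocysts. GSTP1, of the pi class, had scaled counts of 181, 93.0 and 51.0 (GV), 24.7, 19.7 and 16.5 (MII), 50.6, 36.3 and 0 (4-cell), 0, 0 and 1.41 (8-cell), 0, 3.02 and 37.8 (16-cell) and 1083, 2090.2 and 943 (blastocyst). It was read in all oocyte pools, stood at most at 1.41 in 8-cell embryos and was highest in the 3 blastocyst pools. GSTP1 rose into the blastocyst (difference 7.21 ± 1.08, adjusted p = 3.2e-05) and against GV oocytes (difference 3.69 ± 1.08, adjusted p = 0.0081), and a copy of it listed by locus number held 46 reads over all libraries. GSTO1, an omega-class enzyme that reduces dehydroascorbate, had scaled counts of 1.02, 2.27 and 1.57 (GV), 0, 14.8 and 0.919 (MII), 1.81, 0 and 4.19 (4-cell), 151, 33.5 and 167 (8-cell), 65.0, 112 and 193 (16-cell) and 487, 296 and 112 (blastocyst). The oocyte and 4-cell pools held at most 14.8, and all 8-cell pools more. GSTO1 rose into the 8-cell embryo (difference 4.43 ± 0.90, adjusted p = 0.0017) and ended above GV oocytes (difference 5.65 ± 0.90, adjusted p = 3.0e-05).

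GSTA3, an alpha-class enzyme also known for steroid isomerisation, had 42.1, 11.7 and 7.26 scaled counts in the blastocyst pools. The other 15 libraries held no read of GSTA3 (adjusted p = 3.7e-05, and adjusted p = 1.7e-05 against GV oocytes). GSTT1, of the theta class, was likewise read only in blastocysts, at 1.04 to 12.9 (adjusted p = 0.0016, and adjusted p = 0.00093 against GV oocytes). For GSTT1 the first of these calls did not pass in a fit of the 2 stages alone (adjusted p = 0.069) or with voom (0.062). GSTA3 and GSTT1 met the filter of 3 libraries only through their blastocyst reads, so their p-values are no separate support for a rise. GSTZ1, an enzyme of tyrosine breakdown, had 10.4 ± 8.73 in blastocysts, and the 16-cell stage held 1 read in all (adjusted p = 0.01). This result for GSTZ1 did not pass with blastocyst pool 3 (adjusted p = 0.055) left out, nor in a fit of the 2 stages alone (0.088), with quantile normalization (0.23) or with voom (0.065). GSTA4, known for clearing the lipid peroxidation product 4-hydroxynonenal, fell from 88.0 ± 25.7 to 28.8 ± 45.8 into the 16-cell embryo (difference -2.90 ± 0.84, adjusted p = 0.012) and rose to 89.0 ± 52.1 in the blastocyst (difference 2.81 ± 0.84, adjusted p = 0.014). For GSTA4 the fall did not pass with 16-cell pool 3 (adjusted p = 0.084) left out, nor in a fit of the 2 stages alone (0.18) or without both libraries that stand apart (0.079). For GSTA4 the rise did not pass with 16-cell pool 3 (adjusted p = 0.094) or blastocyst pool 1 (0.074) left out, nor in a fit of the 2 stages alone (0.14) or with quantile normalization (0.053). GSTA1, the alpha-class enzyme abundant in steroid-making cells, did not pass the F test. It had 0, 52.2 and 112 scaled counts in the GV pools and 88.5, 1.64 and 35.1 in the 8-cell pools. What cumulus or granulosa cells add to GSTA1 was not tested. GSTK1 and GSTO2 passed neither.

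The membrane-bound transferases differed among themselves. MGST2, which also makes leukotriene C4, had scaled counts of 883, 869 and 684 (GV), 991, 673 and 854 (MII), 478, 690.0 and 382 (4-cell), 319, 953 and 302 (8-cell), 124, 72.6 and 31.8 (16-cell) and 199, 123 and 86.0 (blastocyst). The 16-cell pools lay below all 8-cell pools. It fell into the 16-cell embryo (difference -2.68 ± 0.49, adjusted p = 0.00038) and ended below GV oocytes (difference -2.61 ± 0.49, adjusted p = 0.00019). MGST1, the main form of liver microsomes, was higher in blastocysts (238 ± 72.7) than in GV oocytes (35.9 ± 51.6, difference 3.51 ± 0.90, adjusted p = 0.0031), and MGST3 did not pass the F test.

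Of the 5 metallothioneins, MT3 and MT4 fell while MT1E and MT2A rose between GV oocyte and blastocyst, where 20.4% of all genes fell and 25.6% rose. MT2A, MT3 and MT4 follow each other without a gene between them in the RefSeq order of the ARS-UCD2.0 assembly. MT3, a form best known from brain, had scaled counts of 1069.9, 523 and 475 (GV), 57.6, 2.82 and 18.4 (MII), 14.5, 37.5 and 23.8 (4-cell), 7.63, 0 and 0 (8-cell), 1.20, 0 and 0 (16-cell) and 0 in all 3 (blastocyst). Its GV pools lay above all MII pools, and no blastocyst library held a read. MT3 fell at maturation (difference -4.94 ± 0.88, adjusted p = 0.0063), a mean 0.0381 times the earlier one, and into the 8-cell embryo (difference -2.83 ± 0.88, adjusted p = 0.037), and was lower in blastocysts than in GV oocytes (adjusted p = 2.2e-07). For MT3 the fall at maturation did not pass with GV pool 1 (adjusted p = 0.061) or MII pool 2 (0.068) left out. For MT3 the fall into the 8-cell embryo did not pass with 4-cell pool 1 (adjusted p = 0.058), 4-cell pool 2 (0.13), 4-cell pool 3 (0.09), 8-cell pool 2 (0.096) or 8-cell pool 3 (0.13) left out, nor in a fit of the 2 stages alone (0.10), with array weights (0.15) or without both libraries that stand apart (0.077).

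MT4, a form of stratified epithelium, had scaled counts of 65.0, 49.9 and 51.0 (GV), 51.2, 30.3 and 19.3 (MII), 90.3, 229.6 and 19.6 (4-cell), 12.2, 0 and 0 (8-cell), 0 in all 3 (16-cell) and 2.14, 3.52 and 2.07 (blastocyst). All 8-cell pools lay below all 4-cell pools, and the 16-cell libraries held no read. It fell into the 8-cell embryo (difference -4.20 ± 0.89, adjusted p = 0.0025) and was lower in blastocysts than in GV oocytes (difference -3.24 ± 0.89, adjusted p = 0.0051). MT1E had scaled counts of 0, 0.756 and 7.07 (GV), 0 in all 3 (MII), 0 in all 3 (4-cell), 0 in all 3 (8-cell), 14.4, 0 and 0 (16-cell) and 48.5, 72.7 and 49.7 (blastocyst). All blastocyst pools lay above all others (difference 3.71 ± 0.72, adjusted p = 0.00047, and difference 3.69 ± 0.72, adjusted p = 0.00027 against GV oocytes). MT2A, a widely expressed zinc buffer, was higher in blastocysts (125 ± 102) than in GV oocytes (3.84 ± 3.49, difference 4.14 ± 1.30, adjusted p = 0.013). This result for MT2A did not pass with GV pool 1 (adjusted p = 0.067) or blastocyst pool 2 (0.07) left out. Its 16-cell pools held 0, 432 and 169, and with 16-cell replicate 1, the pool at 0, left out together with 8-cell replicate 2, MT2A rose into the 16-cell embryo by 4.57 (adjusted p = 0.0023), against adjusted p = 0.18 with all libraries. As the 16-cell pool left out was the lowest, that fit is no separate support for a rise. MT1A stayed at or under 23.8 and did not pass the F test (adjusted p = 0.076). Metallothioneins are short and alike, so reads may be split among copies. MT1E matched no entry of the RefSeq gene table, so which gene its reads stand for is uncertain.

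**Figure D5:**
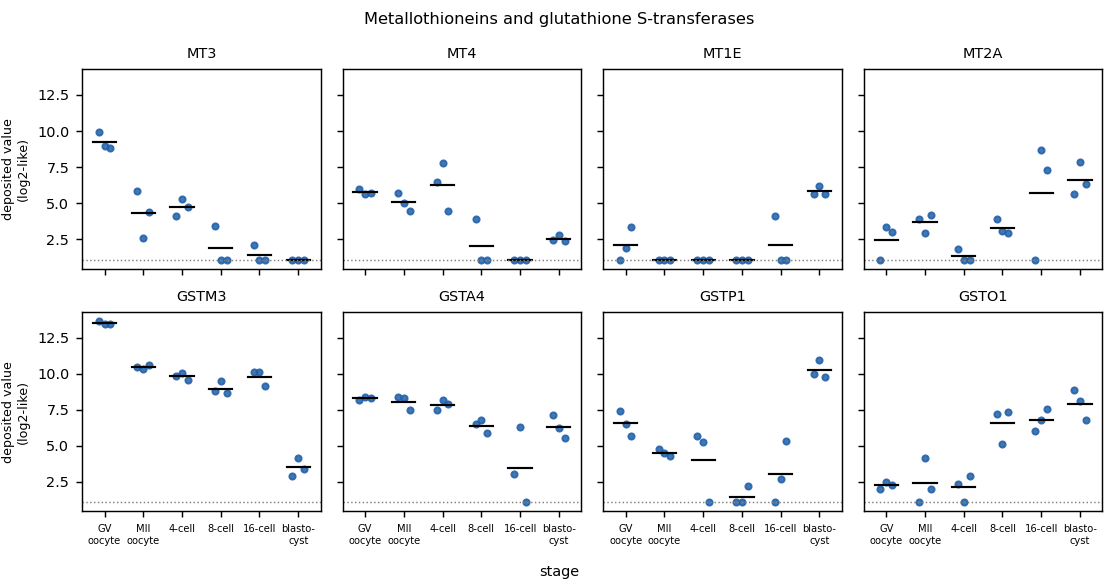
Deposited log2-like values (vertical) of metallothioneins and glutathione S-transferases by stage (horizontal), with 1 point per library, bars at stage means and a dotted line at the value of 0 reads. MT3 and GSTM3 drop from GV to MII oocytes, and MT1E and GSTP1 are highest in the 3 blastocyst pools.

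NFE2L2, which encodes NRF2, had scaled counts of 543, 328 and 397 (GV), 532, 380.1 and 552 (MII), 301, 563 and 291 (4-cell), 391, 439 and 405 (8-cell), 666, 329.5 and 962 (16-cell) and 1941, 1522 and 1509 (blastocyst). Its blastocyst pools lay above all others. NFE2L2 rose into the blastocyst (difference 1.46 ± 0.38, adjusted p = 0.0055), a mean 2.54 times as high, and against GV oocytes (difference 1.98 ± 0.38, adjusted p = 0.00023), and both calls were kept in all alternative fits run. KEAP1, the sensor that targets NRF2 for degradation, had scaled counts of 69.0, 80.9 and 34.6 (GV), 24.7, 19.0 and 17.5 (MII), 50.0, 16.3 and 25.2 (4-cell), 149.6, 55.6 and 288 (8-cell), 250.2, 278 and 93.4 (16-cell) and 82.1, 122 and 131 (blastocyst). The 8-cell pools lay above all 4-cell pools (difference 2.12 ± 0.66, adjusted p = 0.037), and blastocyst pools lay within the range of the 8-cell pools. This result for KEAP1 did not pass with 4-cell pool 2 (adjusted p = 0.15), 4-cell pool 3 (0.099), 8-cell pool 1 (0.091) or 8-cell pool 3 (0.18) left out, nor in a fit of the 2 stages alone (0.12), with quantile normalization (0.052) or with voom (0.066). NQO1, a quinone reductase and a much used marker of NRF2 activity, fell from 296 ± 179 to 83.0 ± 54.1 into the 16-cell embryo (difference -1.92 ± 0.61, adjusted p = 0.021) and had 92.6 ± 44.8 in blastocysts, without a rise (adjusted p = 0.72). For NQO1 the fall did not pass with 8-cell pool 2 (adjusted p = 0.11) or 16-cell pool 1 (0.12) left out, nor in a fit of the 2 stages alone (0.13), with array weights (0.19) or without both libraries that stand apart (0.36). HMOX1, the inducible heme oxygenase, stayed at or under 36.4 in every library and HMOX2, the constitutive one, had reads in every library. Neither passed the F test (adjusted p = 0.27 and adjusted p = 0.63).

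Genes of neighbouring pathways (NRF2 partners, NADPH supply, cystine uptake and glutathione turnover, metal handling, selenoproteins, and other peroxide and repair enzymes) were counted in the same way. Of 107 tested, 0 passed at maturation and 1 fell into the 4-cell embryo. Into the 8-cell embryo 6 rose (5.61%, against 8.64% of all genes) and 10 fell (9.35%, against 4.13%). Into the 16-cell embryo 19 rose (17.8%, against 14.8%) and 13 fell (12.1%, against 16.3%). Into the blastocyst 34 rose (31.8%, against 18.2%) and 10 fell (9.35%, against 13.1%), with a median difference of 0.89, against 0.18 over all genes. SQSTM1, an autophagy receptor that binds KEAP1, fell from 4417 ± 562 in MII oocytes to 954 ± 278 in 4-cell embryos (adjusted p = 0.010) and to 95.0 ± 62.2 in 8-cell embryos (adjusted p = 6.7e-06). For SQSTM1 the first fall did not pass with MII pool 1 (adjusted p = 0.062), MII pool 2 (0.055), MII pool 3 (0.051) or 4-cell pool 3 (0.087) left out. Of the copper and zinc handling genes, SLC31A1, a copper importer, rose from 379 ± 12.7 to 4291 ± 2154 into the 8-cell embryo (adjusted p = 2.1e-07), and SLC39A14, a metal importer, from 28.7 ± 22.8 to 537 ± 314 into the 16-cell embryo (adjusted p = 7.5e-05). MTF1, the factor that switches on metallothionein genes, fell from 4516 ± 1194 to 878 ± 222 into the blastocyst (adjusted p = 8.4e-07). Among selenoproteins, SELS of the endoplasmic reticulum rose from 3.82 ± 5.60 to 498 ± 322 into the 8-cell embryo (adjusted p = 2.2e-06). The selenium carrier SEPP1 fell from 5910 ± 2154 to 614 ± 413 into the 16-cell embryo (adjusted p = 1.2e-05) and rose to 10440 ± 4528 in the blastocyst (adjusted p = 2.8e-07), steps at which PRDX1 and PRDX2 fell and rose too. ABCC4, an exporter, rose from 347 ± 179 to 4295 ± 1408 into the blastocyst (adjusted p = 6.6e-08). PON2, a membrane lactonase, rose from 1.87 ± 3.25 to 102 ± 11.6 into the 16-cell embryo (adjusted p = 3.2e-05). FOXO1, a transcription factor of stress responses, fell from 6385 ± 1287 to 1417 ± 427 into the 16-cell embryo (adjusted p = 1.5e-05) and to 55.0 ± 14.0 in the blastocyst (adjusted p = 2.5e-10). MTHFD1, a folate enzyme, fell from 2606 ± 525 to 290 ± 51.2 into the 8-cell embryo (adjusted p = 3.7e-06).

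Cell type markers moved at the same steps. Oocyte markers fell for 8 of 11 into the 16-cell embryo and for 9 of 11 into the blastocyst, where 1, DDX4, rose. Trophectoderm markers rose for 7 of 11 into the blastocyst, and of the 22 cumulus and granulosa cell markers 3 rose and 8 fell there. The part of such shifts in the changes of the genes above was not tested. In the comparison of 16-cell with 8-cell embryos the calls rested in part on the libraries that stand apart. Without 8-cell replicate 2 and 16-cell replicate 1, 6 rose and 8 fell, and 7 of the 15 calls were shared: GGCT, PRDX2, TXNL4B, MGST2, GSR, SOD2 and TXNRD1. Over all genes 4433 were called at this step without these libraries, against 5337 with them. For the blastocyst step 25 rose and 4 fell without these libraries, with 22 of the 25 calls shared, and over all genes 5371 were called, against 5367 with them. Of the 71 tested genes, 27 (38.0%) passed none of the 6 comparisons, against 33.0% of all genes. The F test was not passed either by 22 of these (31.0% of the 71), against 27.8% of all genes.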

How the data were processed

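Each of the 18 libraries was made, per the labels' protocols, from 10 oocytes or embryos by mixed random and poly(A) priming with single-primer isothermal amplification, which does not mark strand, so overlapping antisense genes cannot be told apart, and was sequenced in single reads of 80 bases. The authors deposited 1 table of log2-like, variance-stabilised values. The submitters' processing notes name CASAVA 1.6, TopHat2 2.0.3, HTSeq, DESeq and the build UMD3.1, while for their roles, the annotation and the handling of reads with several matches the sources used here give nothing. The table's lowest value, 1.097, is that of 0 reads, and inverting the transformation gave whole reads for all 390024 values within 1e-08. Intervals for counting error are not given, as amplified reads are not independent molecules.

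Tables were made in pandas 2.3.3 (Python 3.11.15), plots in matplotlib 3.10.9 and tests in limma 3.58.1 (R 4.3.3). A gene was tested if 3 or more libraries held a read of it. The limma model had stage as its term, took in the 18 libraries and let variance follow the mean, with Benjamini-Hochberg adjustment over 17138 genes and a threshold of 0.05. Symbols of 73 of the 75 genes matched the RefSeq table of assembly ARS-UCD2.0, 4 by synonym, used for names and order only. GSTM1 and MT1E matched no entry. The symbol pattern uses no measured value, but these families, and the lists, were picked with earlier results of these data known. By rule, the text names each gene called in a comparison, 21 genes for their role whatever their values (some of them also called), and up to 2 other pathway genes per direction and step with the smallest p. The remaining genes are named to account for each of the 75. Alternatives were a replicate block, the 2 stages alone, other scalings and filters, array weights, voom on the recovered reads, each library left out, and both libraries that stand apart left out.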

Additional observations from a re-analysis of the deposited data

How the results depend on the processing

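Of 188 recomputed counts of changed genes, 166 stayed within 1.5 times the values reported and 22 did not, and no named call reversed. At maturation the 3 calls became 8 in a fit of the 2 stages alone, 9 with array weights, 5 with voom and 6 without 8-cell replicate 2 and 16-cell replicate 1, and 1 to 6 with 1 library left out (1 without GV replicate 1 or MII replicate 2, 6 without 8-cell replicate 2). Calls over all genes at this step went from 122 to 497, 848, 183 and 250 in the same order. They were 20 without GV replicate 1, 53 without MII replicate 2 and 188 without 8-cell replicate 2. From MII oocyte to 4-cell embryo the 0 calls became 1 in a fit of the 2 stages alone, 4 with array weights, 1 with a mean scaled count of at least 10, 2 without both libraries and 0 to 2 with 1 left out. Over all genes the calls there went from 136 to 433, 1003, 153 and 272 in the same order. From 4-cell to 8-cell embryo the 11 calls became 20 with array weights, 17 without both libraries and 6 to 14 with 1 left out (7 without 4-cell replicate 1 or 3, 6 without 8-cell replicate 3). Over all genes 2188 calls became 3352 with array weights and 3205 without both libraries. They were 1545 and 1642 without 4-cell replicate 1 or 3, and 1674 without 8-cell replicate 3. From 8-cell to 16-cell embryo the 15 calls became 7 in a fit of the 2 stages alone and 8 with array weights, where over all genes 5337 became 2292 and 3519. Of the 83 calls of single genes, 52 were kept with every library left out in turn and 50 in all settings in which the gene was tested. Quantile normalization moved the median of all genes by -0.13 at the 8-cell step, -0.20 at the blastocyst step and -0.23 between blastocyst and GV oocyte, where the median of the 71 genes went from 0.44 to 0.09. With the replicate block, 4, 0, 13, 15, 26 and 31 genes were called in the 6 comparisons and 48 by F test, and 0 of 83 calls was lost. Over all genes the block gave 180, 162, 2368, 5625, 5630 and 8137 calls, against 122, 136, 2188, 5337, 5367 and 7873 without it. The labels give no shared source for equal replicate numbers, so the numbers were not used as pairs. Of 45 same-numbered pairs of libraries, 11 deviated together with a correlation over 0.1 (range -0.108 to 0.202, median 0.040, against -0.023 for other pairs), and 15 of 18 libraries matched a library of their own number best, a hint of pairing from the data and not from the design. Depth limits genes near 1 read, worth up to 3.02 scaled counts.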
